A study of Mus musculus with 23 samples.

Results

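The ribosome biogenesis genes described here are 34 genes that code for nucleolar processing factors, 2 subunits of RNA polymerase I (Pol I) and the transcription factor Myc. They form a list of names, with earlier results of these data known when it was drawn up, and the brightest probe set annotated to each gene stood for it. Of the 34, 33 had a probe set of their own, out of 18820 genes with such a value, and all 33 were among the 14391 genes tested. Tsr1 shared its only probe set with Srr and stays out of all counts of expression. RNA was taken from mucosal scrapings of the colon, with the proximal and distal scrapings of each mouse pooled. The study asked whether peroxisome proliferator-activated receptor α (PPARα), a nuclear receptor activated by fatty acids, takes part in the response of the colon to dietary heme, the iron-containing pigment of red meat. The wild-type (WT) mice were 129S1/SvImJ and the PPARα knockout (KO) mice 129S4/SvJae-Pparatm1Gonz/J, so that genotype and substrain cannot be told apart. All were males of 7 to 9 weeks, bred in 1 facility, and received for 14 days a purified diet with 40 energy% fat and 30 µmol/g calcium, either as such (control) or with 0.5 µmol heme per g. The KO disrupts the ligand-binding domain of PPARα in the whole body, not in the epithelium alone. The groups were WT control (n = 5 mice), WT heme (n = 6), KO control (n = 6) and KO heme (n = 6), with 1 array per mouse.

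A cell makes its ribosomes in the nucleolus. Pol I transcribes the precursor of the ribosomal RNAs there, small nucleolar ribonucleoproteins (snoRNPs) guide its chemical modification, and large sets of assembly factors cut, fold and export the small and the large subunit. Myc, which binds DNA as a dimer with Max at the E-box CACGTG, is known as an activator of many of these genes, and dividing cells of the colonic crypt need them to double their ribosomes.

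The E-box letters stood within 250 bases before to 50 bases after the annotated start of 7 of the 29 genes with a promoter entry, or 24.14%. Over the tested genes with an entry the share was 10.95% of 11338, and over all promoters in the table it was 7.15% of 32851. CACGTG reads the same on both strands, so 1 strand was searched. The windows below are shown because they hold the matches to CACGTG found at the starts of these genes. No other form of the E-box was searched. They were taken from RefSeq promoter sequences (GRCm38.p6), run 5′ to 3′ on the strand of the gene, and the capitals mark the E-box.
Nop2, chr6:125131811-125131840, plus strand: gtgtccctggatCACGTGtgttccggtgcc
Ltv1, chr10:13193092-13193121, minus strand: gccctgtggaccCACGTGtggagctgccgg
Utp20, chr10:88826765-88826789, minus strand: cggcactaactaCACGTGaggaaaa
Pes1, chr11:3963965-3963994, plus strand: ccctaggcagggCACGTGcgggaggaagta
Mybbp1a, chr11:72441355-72441376, plus strand: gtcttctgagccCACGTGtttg
Tsr1, chr11:74898092-74898121, plus strand: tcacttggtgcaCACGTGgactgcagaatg
Wdr43, chr17:71616220-71616249, plus strand: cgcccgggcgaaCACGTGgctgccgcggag
The match in Nop2 began 60 bases before the start, and the other 6 began 3 to 41 bases after it, within the transcribed part. A match is a description of letters and not of binding. Rrp12, Myc, Fbl, Bop1 and Npm1 had no entry. The 250 bases before the start of Nop58 and of Bysl, which passed the test in KO mice, held no CACGTG.
Nop58, chr1:59684756-59685005, plus strand: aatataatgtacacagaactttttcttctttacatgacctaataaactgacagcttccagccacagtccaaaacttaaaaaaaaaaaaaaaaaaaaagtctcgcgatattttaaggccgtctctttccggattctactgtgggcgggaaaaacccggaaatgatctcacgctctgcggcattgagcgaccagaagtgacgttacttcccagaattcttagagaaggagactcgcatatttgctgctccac
Bysl, chr17:47611493-47611742, minus strand: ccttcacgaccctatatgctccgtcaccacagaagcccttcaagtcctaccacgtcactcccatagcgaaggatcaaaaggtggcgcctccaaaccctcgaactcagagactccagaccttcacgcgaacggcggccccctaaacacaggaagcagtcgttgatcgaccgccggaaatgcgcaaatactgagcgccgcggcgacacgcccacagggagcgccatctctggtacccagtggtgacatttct

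The deposited values were log2 signals, and levels are given here as linear signal (2 to the power of the log2 value), which compares mice for 1 gene but not genes with each other. A gene was called at an adjusted p under 0.01 in limma with Benjamini-Hochberg adjustment over all 14391 genes. The Ppara signal ran from 444 to 560 in WT control, 344 to 475 in WT heme, 240 to 378 in KO control and 163 to 238 in KO heme mice, with no overlap of the genotypes on either diet. The sources used here do not say which part of the transcript its probes cover, so this checks the labels only in part. The 8 colon epithelium markers were present in every group, with mean log2 values of 11.35 to 11.51 per mouse. On heme 1 rose and 2 fell in WT mice, and 2 rose and 2 fell in KO mice. Of all genes tested, 13.2% (WT) and 12.7% (KO) were called higher, and 11.6% and 12.9% lower. The array medians lay between 5.80 and 5.90 on the log2 scale.

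In WT mice none of the ribosome biogenesis genes passed the test for heme, and most had a small log2 change above 0. Their median log2 change was 0.18 (1.13-fold), against -0.01 for all genes tested, and 26 of 33 had a change above 0, against 47.3% of all genes. No gene of the 33 was called, whereas 24.8% of all genes tested were called, 13.2% higher and 11.6% lower. At an unadjusted p under 0.05, 10 of the 33 were higher and 2 lower, against 22.6% and 23.3% of all genes. Bysl, Ltv1, Wdr12 and Bop1 had an adjusted p under 0.05, a bound that 18.9% of all genes passed with a higher value. For none of the 33 did all heme mice lie above or all lie below the control mice, against 10.5% and 8.78% of all genes.

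In KO mice the median change was of the same size, and 3 genes passed the test. The median log2 change was 0.18 (1.13-fold), against -0.02 for all genes, with 30 of 33 above 0 against 46.1%. Nop58, Npm1 and Bysl rose, which is 9.09% of the 33, against 12.7% of all genes called higher, while none of the 33 and 12.9% of all genes were called lower. At an unadjusted p under 0.05, 14 were higher and none lower, against 21.8% and 24.9%. At an adjusted p under 0.05, 8 were higher, against 18.2% of all genes. All heme mice were above all control mice for 4 of the 33 (Nop58, Npm1, Rrp9 and Bop1) and below them for none, against 9.42% and 8.55% of all genes. The 95% confidence interval of the log2 change stayed under 1 for each of the 33 genes in both genotypes, so that a doubling lay outside all of them. With each array centred on its own median, 66.3% and 66% of the genes called in WT and KO mice were higher. Without centring these shares were 53.2% and 49.6%. Of the 33 genes, 2 in WT and 5 in KO mice were called higher with centring, against 2423 and 2482 of 14397 genes tested.

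**Figure D1:**
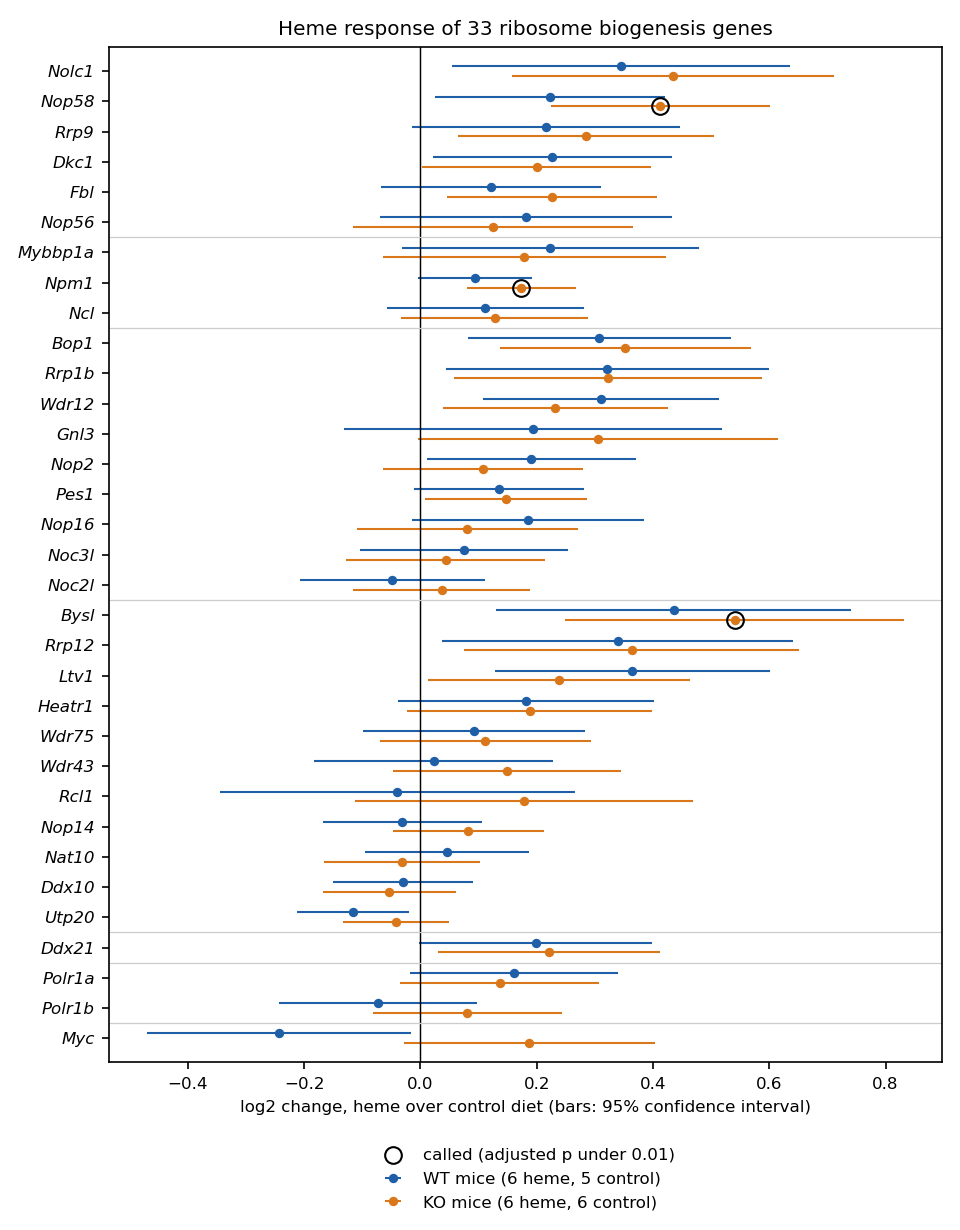
Log2 change of heme over control diet for each of the 33 genes in WT (blue) and KO (orange) mice, with bars for the 95% confidence interval from limma and rings around the 3 genes called in KO mice. Genes are grouped by role, and most points lie between 0 and 0.5 in both genotypes.

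The snoRNP proteins had positive changes in 6 of 6 genes in both genotypes, from 0.12 to 0.34 in WT mice and from 0.12 to 0.43 in KO mice. Nop58, a core protein of the box C/D particles that guide 2′-O-methylation of ribosomal RNA, gave a signal of 191, 170, 192, 176 and 202 in the 5 WT control mice. In WT heme mice its signal ran from 183 over a median of 214 to 290, in KO control mice from 155 over 174 to 190, and in KO heme mice from 215 over 223 to 268. The lowest KO heme mouse was above the highest KO control mouse, whereas the WT groups overlapped. Nop58 rose in KO mice by 0.41 ± 0.09 (log2, SE; adjusted p = 0.0011), and its change in WT mice was 0.22 ± 0.10 (adjusted p = 0.070). The call in KO mice held in every alternative fit and with each single mouse left out.

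Nolc1, a chaperone of snoRNPs in the nucleolus and in Cajal bodies, had signals of 168, 136, 128, 132 and 159 in WT control mice. They ran from 133 over 182 to 263 in WT heme, from 122 over 137 to 173 in KO control and from 163 over 194 to 227 in KO heme mice. Diet groups overlapped in both genotypes, in KO mice by a few mice only. Its log2 change was 0.34 ± 0.14 in WT mice (adjusted p = 0.058) and 0.43 ± 0.13 in KO mice (adjusted p = 0.013). For Rrp9, the U3-specific protein of the particle that starts small subunit processing, the KO diet groups did not overlap, with a change of 0.29 (adjusted p = 0.037). Fbl, the methyltransferase of the box C/D particles, changed by 0.12 and 0.23, Dkc1, the pseudouridine synthase of the H/ACA particles, by 0.23 and 0.20, and Nop56, the partner of Nop58, by 0.18 and 0.12 in WT and KO mice, with adjusted p from 0.043 to 0.42. A dimmer probe set of Fbl gave larger changes of 0.28 and 0.32.

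Among the abundant nucleolar proteins, Npm1 (nucleophosmin, a chaperone of ribosomal particles) rose in KO mice by a small but even amount. The WT control signals were 1950, 1923, 1760, 1850 and 1775. The WT heme signals ran from 1848 over 1956 to 2174, the KO control signals from 1624 over 1727 to 1755, and the KO heme signals from 1827 over 1896 to 2092. No KO heme mouse overlapped with a KO control mouse, and the KO control mice also lay below all 5 WT control mice. The change was 0.17 ± 0.05 in KO mice (adjusted p = 0.0042) and 0.09 ± 0.05 in WT mice (adjusted p = 0.12). The KO control mice were lower than the WT control mice by a log2 value that did not pass the test (-0.12 ± 0.05, adjusted p = 0.78). The gene has 4 probe sets, and the other 3 gave changes of 0.17 to 0.23 in KO mice and 0.11 to 0.16 in WT mice. Signal from near-identical copies of Npm1 elsewhere in the genome could not be separated from its own on these arrays. Without KO control replicate 1, KO heme replicate 1 or KO heme replicate 5 the call was lost (adjusted p = 0.012, 0.012 and 0.013). Ncl (nucleolin), which binds nascent ribosomal RNA, changed by 0.11 and 0.13, and Mybbp1a, a nucleolar regulator of Pol I transcription and processing, by 0.22 and 0.18, with no call.

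The largest subunit of Pol I, Polr1a, changed by 0.16 in WT mice and 0.14 in KO mice. The second subunit, Polr1b, changed by -0.07 and 0.08. Neither passed the test in either genotype. Ddx21, a helicase that acts in Pol I transcription and in processing, changed by 0.20 and 0.22 (adjusted p = 0.11 and 0.063).

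Factors of the small subunit had 7 of 11 changes above 0 in WT mice and 8 of 11 in KO mice. Bysl (bystin), needed for the maturation and export of the pre-40S particle, had the largest changes of the 33 genes in both genotypes. Its signals were 91.5, 69.9, 77.9, 82.5 and 108 in WT control mice. They ran from 78.7 over 123 to 147 in WT heme, from 80.9 over 88.1 to 103 in KO control and from 98.7 over 133 to 170 in KO heme mice. In each genotype some heme mice fell among their controls, 2 of the 6 WT and 1 of the 6 KO mice, and the other KO heme mice were above every control mouse. Bysl rose by 0.54 ± 0.14 in KO mice (1.46-fold, adjusted p = 0.0042), and its change in WT mice was 0.44 ± 0.15 (1.35-fold, adjusted p = 0.024). The KO call was lost without KO control replicate 4, 5 or 6 or KO heme replicate 5, with adjusted p of 0.010 to 0.015, and the change stayed between 0.47 and 0.62 when single mice were left out.

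Ltv1, a factor of the late pre-40S particle, had the lowest adjusted p of the 33 genes in WT mice. Its WT control signals were 98.1, 92.2, 111, 107 and 95.1, and those of WT heme mice ran from 111 over 128 to 161, so that the groups met at their edge. The KO control signals ran from 87.8 over 112 to 131 and the KO heme signals from 114 over 127 to 162. The changes were 0.36 ± 0.11 (adjusted p = 0.015) and 0.24 ± 0.11 (adjusted p = 0.089). Rrp12, which helps to export pre-ribosomes, had signals of 68.3, 68.0, 69.8, 69.2 and 85.5 in WT control mice, of 61.0 over 96.2 to 135 in WT heme, of 59.8 over 72.5 to 83.3 in KO control and of 74.8 over 94.9 to 104 in KO heme mice. The WT heme mice spanned the widest range and included the lowest and the highest values of the WT mice. Its changes were 0.34 ± 0.15 and 0.36 ± 0.14 (adjusted p = 0.072 and 0.042).

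Other factors of the small subunit had smaller changes than these, or changes below 0. Utp20, a large scaffold of the small subunit processome, had signals of 391, 381, 388, 377 and 361 in WT control mice and of 330 over 354 to 362 in WT heme mice. The highest WT heme mice only reached the level of the lowest control mouse. The change was -0.12 ± 0.05 in WT mice (adjusted p = 0.052) and -0.04 ± 0.04 in KO mice (adjusted p = 0.49). The helicase Ddx10 had changes of -0.03 and -0.05, Nat10, which acetylates 18S ribosomal RNA, 0.05 and -0.03, Nop14 -0.03 and 0.08, Rcl1 -0.04 and 0.18, and Wdr43 0.02 and 0.15, with adjusted p of 0.22 or more in each case. For these 5 genes, and for Noc2l and Polr1b in WT mice and Utp20 in KO mice, the sign turned in at least 1 other setting or with 1 mouse left out. Heatr1, a processome scaffold, had changes of 0.18 and 0.19, and Wdr75 0.09 and 0.11. The probe set shared by Tsr1 and Srr had log2 means of 8.29 in WT control, 8.11 in WT heme, 8.25 in KO control and 8.02 in KO heme mice, and which of its 2 genes gave these values cannot be told apart.

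Large subunit factors were positive in 8 of 9 genes in WT mice and in 9 of 9 in KO mice. Bop1, Wdr12 and Pes1 form 1 complex that processes the precursors of 28S and 5.8S ribosomal RNA. Bop1 signals were 252, 246, 290, 259 and 287 in WT control mice. They ran from 252 over 341 to 432 in WT heme, from 223 over 259 to 292 in KO control and from 294 over 342 to 362 in KO heme mice. The KO diet groups did not overlap, while 2 WT heme mice fell among the controls. Its changes were 0.31 ± 0.11 (adjusted p = 0.030) and 0.35 ± 0.10 (adjusted p = 0.0101), the latter just outside the threshold. Wdr12 signals were 82.9, 87.0, 87.8, 82.2 and 80.7 in WT control and ran from 86.7 over 103 to 136 in WT heme, from 74.3 over 90.7 to 102 in KO control and from 98.1 over 103 to 121 in KO heme mice. The lowest WT heme mouse stood within the narrow range of the controls. The changes were 0.31 ± 0.10 (adjusted p = 0.016) and 0.23 ± 0.09 (adjusted p = 0.054). A dimmer probe set of Wdr12 gave 0.25 and 0.20. Pes1 changed by 0.14 and 0.15 on its brighter probe set, but its dimmer one gave -0.10 and -0.43. Of the other factors, Rrp1b changed by 0.32 in both genotypes, the GTPase Gnl3 (nucleostemin) by 0.19 and 0.31, the RNA methyltransferase Nop2 by 0.19 and 0.11, Nop16 by 0.19 and 0.08, Noc3l by 0.08 and 0.04, and Noc2l by -0.05 and 0.04, with adjusted p of 0.050 to 0.73.

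**Figure D2:**
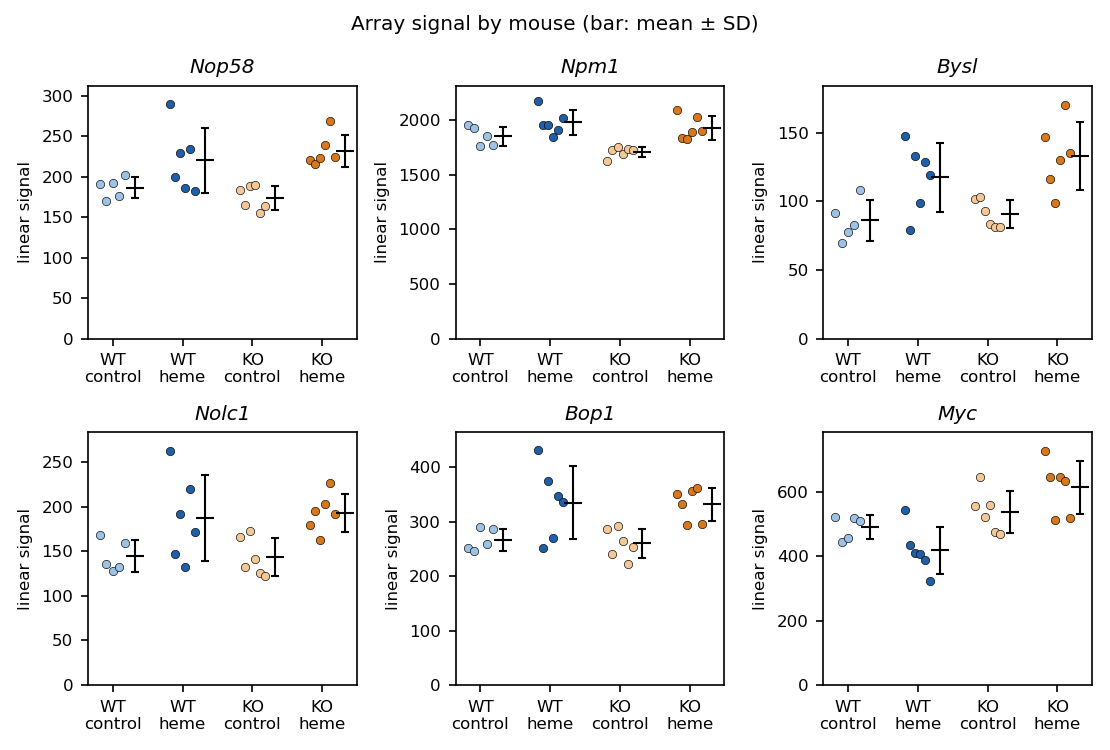
Linear array signal of 6 genes in each mouse (points), with the mean ± SD of each group (black bars). The KO heme mice stand above the KO control mice for Nop58, Npm1 and Bop1, and Myc is lower in most WT heme mice than in WT control mice.

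Myc had the lowest log2 change of the 33 genes in WT mice, whereas in KO mice its change lay near their median of 0.18. The signals of Myc were 522, 444, 456, 521 and 511 in WT control mice. In WT heme mice they were spread from 324 over 409 to 544, in KO control mice from 471 over 540 to 646 and in KO heme mice from 514 over 640 to 728. In WT mice 5 of 6 heme mice were below the lowest control mouse and the sixth was above them all, and in KO mice the diet groups overlapped. The change was -0.24 ± 0.11 in WT mice (adjusted p = 0.086) and 0.19 ± 0.10 in KO mice (adjusted p = 0.16), so that neither passed the test. On the heme diet Myc was higher in KO than in WT mice by 0.56 ± 0.10 (1.48-fold, adjusted p = 0.0069), with 1 WT heme mouse above the 2 lowest KO mice. On the control diet the difference was 0.13 ± 0.11 (adjusted p = 0.98), and the difference between the heme effects was 0.43, with a 95% confidence interval of 0.12 to 0.74 that did not survive adjustment (adjusted p = 0.53). The call on the heme diet was lost in 10 of 23 fits with 1 mouse left out, with a log2 difference of 0.49 to 0.64. These fits were those without WT control replicate 5, WT heme replicates 2 to 6, or KO heme replicates 1, 2, 4 and 5. It was also lost with only the 2 groups compared in the model (adjusted p = 0.076).

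The other 32 genes did not pass any test between genotypes. On the control diet none of the 33 was called, against 0.0695% of all genes, and the median difference of KO over WT was 0.01. At an unadjusted p under 0.05, Npm1 was lower and no gene of the 33 higher, against 3.07% and 2.61% of all genes. On the heme diet Myc alone was called, against 0.32% of all genes, and the median difference was again 0.01. The heme effect in KO mice less that in WT mice had a median of 0.02 over the 33 genes and ran from -0.13 to 0.22 without Myc, with 95% confidence intervals between -0.45 and 0.64, and no gene was called, against 0.0139% of all genes. Myc was the 1 gene with an unadjusted p under 0.05 for a higher heme effect in KO mice and none had it for a lower one, against 3.13% and 4.18% of all genes. The intervals leave room for differences between the genotypes as large as the heme effects themselves.

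The mice of 1 group differed in these genes, and most of the genes differed together. In WT heme mice the mean log2 value over the 33 genes ran from 7.75 to 8.33 (SD 0.227, n = 6), compared with 7.80 to 7.94 in WT control (SD 0.0588, n = 5), 7.77 to 7.98 in KO control (SD 0.0826, n = 6) and 7.90 to 8.21 in KO heme mice (SD 0.106, n = 6). WT heme replicate 1 was above the mean of its group for 33 of 33 genes and replicate 3 for 31, whereas replicates 2 and 4 were above it for 3 genes each and replicate 6 for 5. Among KO heme mice, replicate 5 was above the group mean for 32 genes and replicate 3 for 3. The WT heme group thus held mice with levels at or below those of the controls and mice far above them. Without WT heme replicate 1 the median log2 change of the 33 genes in WT mice was 0.10, and without KO heme replicate 5 that in KO mice was 0.13. Left out 1 at a time, WT heme replicates 2, 4 and 6 gave 4, 2 and 1 genes called higher in WT mice. In KO mice 1 gene stayed called without KO heme replicate 5, and 5 were called without WT heme replicate 1 or 4, KO control replicate 3 or KO heme replicate 3.

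**Figure D3:**
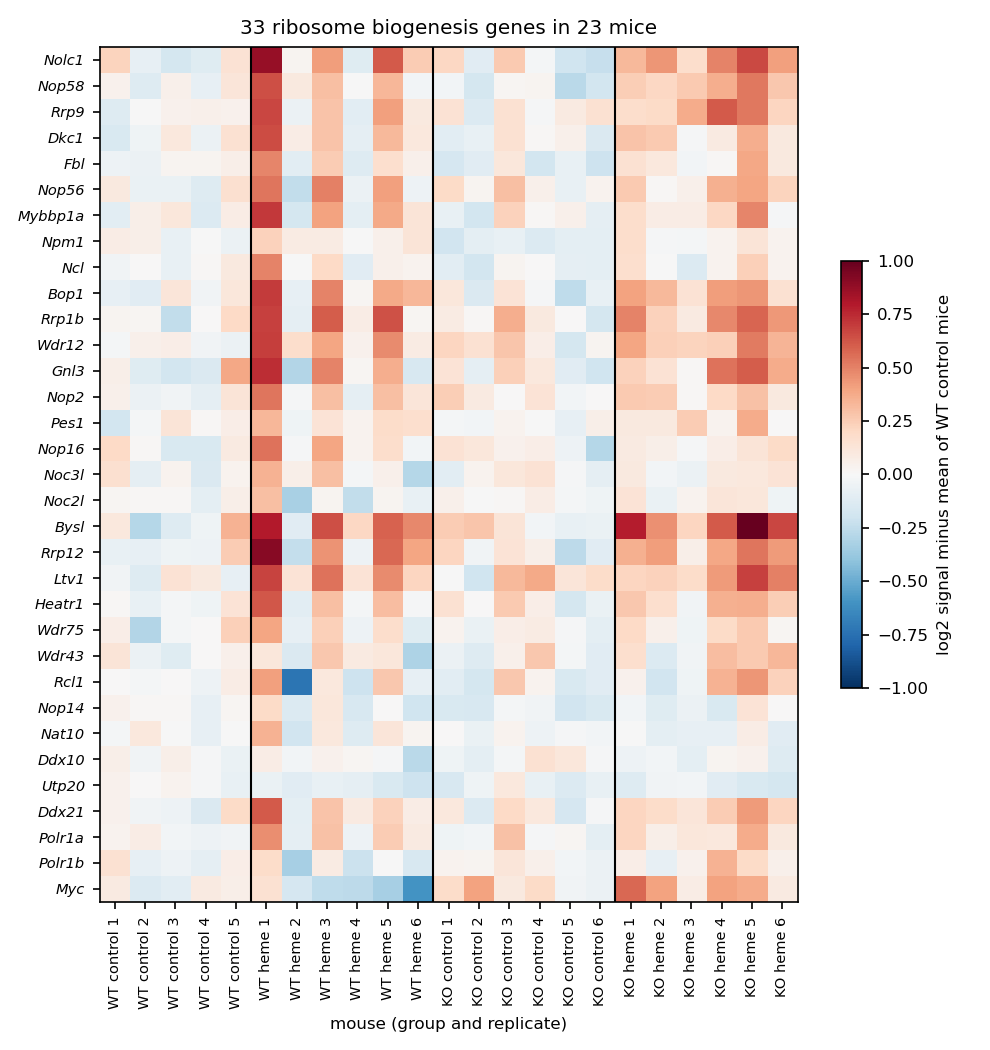
Log2 signal of the 33 genes (rows, by role) in the 23 mice (columns), less the mean of the WT control mice, from blue (lower) to red (higher). WT heme replicate 1 is red in nearly all rows, WT heme replicates 2 and 4 are near white or blue, and Utp20, Ddx10 and Myc depart from the other rows.

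After subtraction of the group means, the median Pearson correlation between 2 of the 33 genes over the 23 mice was 0.67 (528 pairs, 99.05% above 0), against -0.002 over 3598 of the genes tested, taken at even steps in order of name. This is a description, since all genes of a mouse come from 1 RNA sample on 1 array. Without WT heme replicate 1 the median was 0.56. Nop56 and Gnl3 were the closest pair (r = 0.93), and Heatr1 had the highest median correlation with the other genes (0.79). Utp20 (0.10), Ddx10 (0.30), Npm1 (0.36) and Myc (0.38) had the lowest. Of the other gene lists, the 18 S phase genes had the highest median correlation with the 33 genes (0.63), ahead of Myc targets outside the nucleolus (0.59), and the differentiated colonocyte markers the lowest (-0.34). In WT heme mice the mean log2 value of the S phase genes was 8.35 and 8.12 in replicates 1 and 3, 7.97 and 7.99 in replicates 5 and 6, and 7.60 and 7.46 in replicates 2 and 4. The mice lowest in S phase genes were thus also the lowest in ribosome biogenesis genes. In whole scrapings, fewer cells of a type and less RNA per cell cannot be told apart.

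Other genes of the pathway also had medians above 0, and a few of them passed the test. For comparison, 13.2% (WT) and 12.7% (KO) of all genes tested were called higher, and 11.6% and 12.9% lower. Of 36 other genes of the small subunit processome, 7 rose in WT mice, 6 rose in KO mice and none fell, with medians of 0.13 and 0.14. They were led by Pno1, a partner of the pre-40S particle, at 0.55 ± 0.10 and 0.47 ± 0.10 (adjusted p = 0.00029 and 0.00073), and by the processome scaffold Tbl3 at 0.39 and 0.36, while Mphosph10 rose in WT mice by 0.44. Of 49 other large subunit genes, 5 rose and 1 fell in WT mice, and 5 rose and 2 fell in KO mice, not all the same genes, with medians of 0.11 and 0.14. Mrto4, a placeholder on the pre-60S particle, rose by 0.53 and 0.50, and Lyar rose by 0.69 in WT mice. Of 11 other snoRNP genes, none fell, 3 rose in WT mice and 2 rose in KO mice. Nhp2 and Nop10, the small proteins that sit with Dkc1 in the H/ACA particle, rose by 0.54 and 0.34 in WT and by 0.54 and 0.23 in KO mice. Of 13 genes listed with the RNA exosome, which trims ribosomal RNA precursors, 2 rose in both genotypes, the exosome subunit Exosc9 (0.28 and 0.24) and the nucleolar protein Nol7 (0.40 and 0.40). The shares called higher thus lay near those of all genes for the large subunit and exosome genes, and somewhat above them for the processome and snoRNP genes. These counts are small, and no list was tested as a set.

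Other Pol I genes were split. Of 14, the initiation factor Rrn3 rose (0.29) and Taf1a, a subunit of the promoter selectivity factor, fell (-0.33) in WT mice, and 2 rose in KO mice, among them Polr1c (0.27). The medians were 0.07 and 0.14. Cytosolic ribosomal proteins, the products that the assembly factors work on, had medians below 0. None of 68 rose, 6 fell in WT mice, 12 fell in KO mice, and the medians were -0.06 and -0.08. Of all genes tested, 11.6% (WT) and 12.9% (KO) were called lower, and 13.2% and 12.7% higher. The shares of ribosomal proteins called lower thus lay near those of all genes, and these counts are small. None of the 68 was called for a difference between the heme effects of the genotypes, against 0.0139% of all genes. The median of that difference was -0.0039. The largest falls were those of Rpl15 (-0.33), Rpl22 (-0.27) and Rps3a1 (-0.27) in KO mice. Many ribosomal proteins have near-identical pseudogenes, so that their probe sets may read more than 1 locus.

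Among the partners and antagonists of Myc, 1 of 13 rose and 4 fell in both genotypes. The share of all genes called higher was 13.2% in WT and 12.7% in KO mice, and that called lower 11.6% and 12.9%. Mycn, a relative of Myc, fell by 0.41 and 0.63 on the log2 scale, Mga, which binds Max, by 0.29 and 0.44, and Mxd4, a repressor that competes with Myc for Max, by 0.34 and 0.39. Of 26 Myc targets outside the nucleolus, 10 rose in each genotype and 1 fell in WT mice, with medians of 0.34 and 0.28. Nme1, a nucleoside diphosphate kinase, rose by 0.75 and 0.64, Odc1, the first enzyme of polyamine synthesis, by 0.74 and 0.62, and Shmt2, a mitochondrial enzyme of one-carbon metabolism, by 0.66 and 0.58. These changes exceeded those of any of the 33 ribosome biogenesis genes.

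Cell cycle genes moved more than the ribosome biogenesis genes. All 18 genes of G2 and M phase rose in both genotypes, with medians of 0.85 and 0.72, led by Hmmr (1.09 and 0.91) and the kinase Plk1 (1.02 and 0.86). All 18 S phase genes had changes above 0, with medians of 0.39 and 0.33. Of these, 6 passed the test in WT and 3 in KO mice, against 13.2% and 12.7% of all genes called higher. Among them was Rrm2, a subunit of ribonucleotide reductase (1.12 and 1.16).

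**Figure D4:**
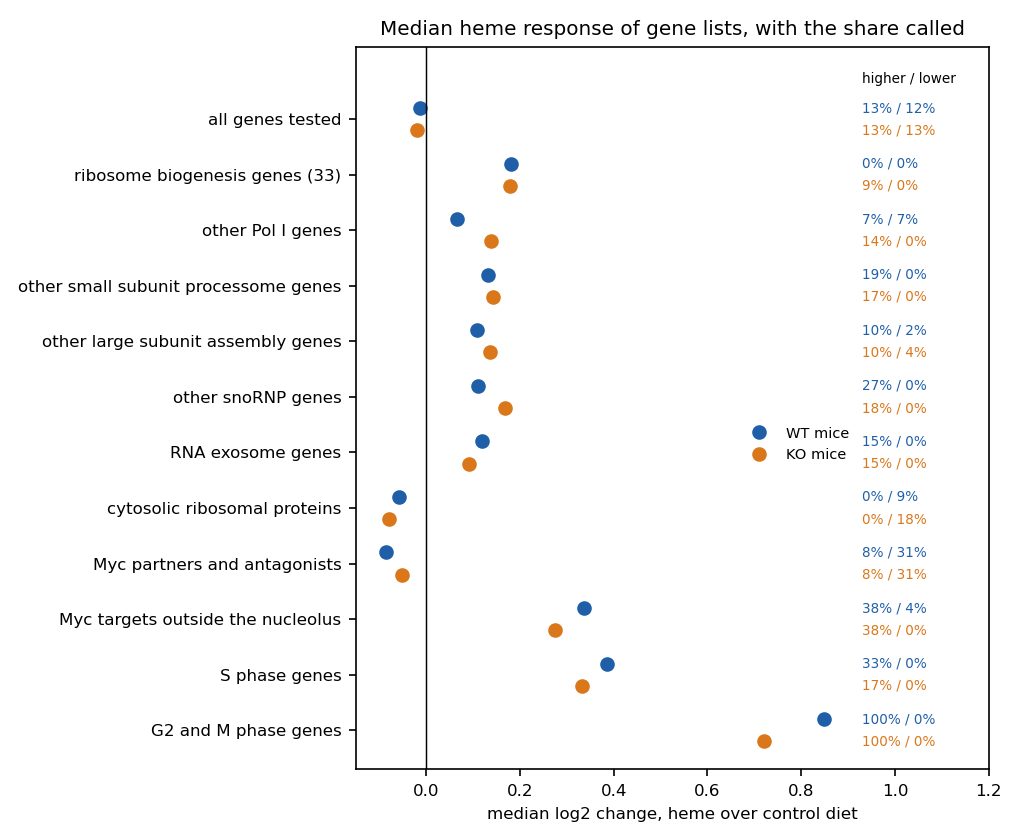
Median log2 change of heme over control diet for the 33 genes, all genes tested and the other lists, in WT (blue) and KO mice (orange). The percentages give the share of each list called higher and lower. The ribosome biogenesis genes lie at 0.18 in both genotypes, between the cytosolic ribosomal proteins below 0 and the cell cycle genes.

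Markers of other cells moved with diet too. For comparison, 13.2% (WT) and 12.7% (KO) of all genes tested were called higher, and 11.6% and 12.9% lower. The 13 smooth muscle markers fell in 11 genes in WT and in 1 in KO mice, with medians of -1.16 and -0.43. None of the 13 was called for a difference between the heme effects, and none was under a signal of 20. Their summed signal ran from 6816 to 19540 in WT control and 3932 to 6071 in WT heme mice. It ran from 3777 to 9628 in KO control and 3578 to 6176 in KO heme mice. In WT control it was 15510 and 19540 in replicates 1 and 2, and 8215, 6816 and 7389 in replicates 3, 4 and 5. With the mean of these markers as a covariate, the median change of the 33 genes was 0.21 in WT and 0.19 in KO mice. None was called in WT mice and 2 were called in KO mice. Of all 14391 genes, 753 and 1544 were then called higher in WT and KO mice, and 645 and 1640 lower. Bysl in KO mice had an adjusted p of 0.01005. Of 9 crypt base and stem cell markers, 3 fell in WT and 7 in KO mice, among them Sox9 (-0.67 and -0.48) and Rnf43 (-0.60 and -0.46). At an adjusted p under 0.05, 6 of the 9 passed in WT and 7 in KO mice. None of the 9 was called for a difference between the heme effects of the genotypes. Of 14 genes listed as lymphocyte and germinal centre markers, Rgs13 fell in both genotypes (-0.68 and -0.85) and no other passed the test. Which cells gave the Rgs13 signal cannot be told from whole scrapings. The summed signal of the lymphocyte markers ran from 1050 to 1486 in WT heme and from 872 to 3262 in KO heme mice. Of 8 differentiated colonocyte markers, 2 rose in both genotypes, the water channel Aqp8 (1.12 and 1.13) and the keratin Krt20 (0.50 and 0.47), and Cdhr5 fell in WT mice (-0.20). Their changes were below 0 for 4 of 8 in each genotype, with medians of 0.0027 and -0.0052. The part of such shifts in cell content in the values of the 33 genes was not tested.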

How the data were processed

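Mucosal scrapings of the colon of 23 mice were hybridised to Affymetrix Mouse Gene 1.1 ST arrays from 100 ng of RNA per mouse, and the authors had excluded a WT control array for quality. The deposited table holds log2 values that the authors made by Robust Multi-array Average (RMA) over the arrays. Their methods name probe sets of a custom definition, whereas the rows carry Affymetrix identifiers, and the build and version of the tools are not given in the sources used here. Of 35556 probe sets, 21218 carried 1 gene symbol, 1881 several and 12457 none. Symbols were updated through Entrez identifiers (21185 matched), those with several genes were dropped, and the probe set with the highest mean over the 23 arrays stood for each gene. A gene was tested if its linear signal averaged over 20 in 1 group or more. A model with 4 group means was fitted with limma 3.58.1 (R 4.3.3), with Benjamini-Hochberg adjustment over 14391 genes, and genes with an adjusted p under 0.01 were called, after the threshold in the methods. The fit was tested on simulated data. Groups came from the sample labels. Each array is 1 mouse, and precision is limited by how many arrays a group has. The 4 groups shared 1 variance estimate per gene. An SE therefore does not follow the spread of the 2 groups compared alone, and the WT heme mice were the most spread in these genes. All 34 genes were accounted for, and from each other list the called genes with the largest changes, up to 3 per list, were named. The genes and lists were chosen with earlier results of these data known, so that no list was given a test of its own. Alternatives covered the signal filter, the threshold, the variance model, array weights, a two-way test on linear signal, a replicate block, smooth muscle markers as covariate, centring, probe set means, the samples in the model and each mouse left out.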

Additional observations from a re-analysis of the deposited data

Results flagged for a closer look

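Each of the 33 genes was examined in each of the 4 groups for a mouse far from the others of its group, by Dixon's ratio of the gap to the range. Of 132 such sets 5 held an outlying mouse, and chance at about 1 in 20 would give 6.6. For Nop14, WT control replicate 4 was low at a signal of 118.9, with the next mouse at 126.4. For Rrp12, WT control replicate 5 was high at 85.47 (next 69.81) and KO heme replicate 3 low at 74.84 (next 92.06). For Ddx10, WT heme replicate 6 was low at 178.9 (next 212), and for Polr1a, KO control replicate 3 was high at 236.5 (next 194.9).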

How the results depend on the processing

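The median log2 change of the 33 genes stayed above 0 in every setting and with each mouse left out, between 0.10 and 0.23 in WT mice and between 0.13 and 0.23 in KO mice. The counts of called genes did not hold. In WT mice the count of the 33 genes called higher was 0, and 4 at an adjusted p under 0.05, 4 with array weights and 2 with centred arrays. Over all genes it was 1896, 2723, 2425 and 2423 in the same order, of 14391 tested, or 14397 with centred arrays. In KO mice the count of the 33 genes was 3, and 8 at an adjusted p under 0.05, 6 with array weights, 5 with centred arrays and 6 with only the groups compared. Over all genes it was 1833, 2612, 2126, 2482 and 1632 in the same order. The genes tested were again 14391, or 14397 with centred arrays and 14272 with only the groups compared. With single mice left out the count of the 33 genes was 0 to 4 in WT and 1 to 5 in KO mice. The counts over all genes in those fits are not given here. The call of Myc between genotypes on the heme diet (1 gene) fell to 0 in the two-way test on linear signal and with only the groups compared, and was 0 to 1 with mice left out. The causes were not tested. The main model did not pair mice by replicate number. Over 33 pairs of mice with the same number in different groups, the correlation of the deviations ran from -0.31 to 0.34 (median 0.080). For 165 other pairs it ran from -0.51 to 0.45 (median 0.0045). These overlapping ranges do not settle whether the numbers pair the mice. With the replicate block 5 of the 33 genes were called higher in KO mice, beside 1850 of all 14391 genes.

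Small changes near 0 turned sign. In WT mice the log2 change of Rcl1 became 0.0296 with array weights, 0.0046 in the two-way test and 0.0054 with centred arrays. With the smooth muscle covariate Noc2l became 0.013, Polr1b 0.0071 and Wdr43 -0.0169 in WT mice, and Nat10 0.0083 in KO mice. With centred arrays Ddx10 became 0.0142 and Nop14 0.0138 in WT mice, and Ddx10 0.0028, Nat10 0.0244 and Utp20 0.014 in KO mice. With the mean of its probe sets Pes1 became -0.14 in KO mice. With single mice left out the WT change ran from -0.0268 to 0.0889 for Wdr43, -0.0139 to 0.093 for Nat10, -0.12 to 0.0072 for Noc2l, -0.13 to 0.10 for Rcl1, -0.0517 to 0.0178 for Ddx10 and -0.0761 to 0.0028 for Nop14. Centring moved the KO medians of other Pol I genes to 0.20, of ribosomal proteins to -0.0221 and of Myc partners to 0.0042, and the WT median of Myc partners was -0.15 with the covariate and -0.0285 with probe set means.

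Over all genes, 3563 were called in WT mice without the covariate, and 753 higher and 645 lower with it. On the heme diet 46 genes differed between genotypes, compared with 55 higher and 35 lower with array weights, 93 and 83 at an adjusted p under 0.05, and 7 and 10 with only the groups compared.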

Other observations

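Other promoter letters, chosen after the data were seen, were also counted within 250 bases before to 50 bases after the start. CCGGAAG, the core of the ETS family sites, searched on both strands, stood at 8 of the 29 genes (27.59%: Ddx10, Heatr1, Ltv1, Noc2l, Noc3l, Nolc1, Nop2 and Tsr1), against 16.87% of the tested genes. The palindrome of Nrf1 and that of Zbtb33 (Kaiso) stood at none, against 1.984% and 0.9878% of the tested genes. Ltv1, Nop2 and Tsr1 held both CACGTG and CCGGAAG.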
